A study of Mus musculus with 8 samples.

Results

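The genes described here encode the opioid and nociceptin peptides and their receptors. The precursors are Penk (proenkephalin), Pdyn (prodynorphin), Pomc (pro-opiomelanocortin) and Pnoc (prepronociceptin), and the receptors are Oprm1 (mu), Oprd1 (delta), Oprk1 (kappa) and Oprl1 (the nociceptin receptor, also called NOP). Probes were taken by gene name alone. Every probe of the array that carries one of these names and is not a control spot was used. This gave 8 of 34741 gene names and 13 of 55681 probes. The genes themselves were chosen with earlier results of these data known. RNA came from whole-tissue micropunches of the nucleus accumbens (NAc) of adult male C3H/HeN mice, an inbred strain with no engineered allele in these groups. MS mice (n = 4) had gone through daily maternal separation from PND2 to PND14 while their dams met unpredictable stress, and control mice (n = 4) had stayed with undisturbed dams. Both groups were weaned on PND21, had worked for sweetened milk in operant cages, and were deprived of food before sampling. The paper reports more lever presses for the milk by MS than by control males of this strain. It names a different exposure to palatable food, and the fasting, as possible contributors to altered NAc expression. Their part in the levels below was not tested. The comparison asks whether early separation was followed by other NAc levels of these mRNAs in adulthood.

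Opioid peptides are cut out of long precursor proteins and act on receptors that couple to inhibitory G proteins, which lower cAMP, open potassium channels and close calcium channels. Enkephalins prefer delta and mu receptors, dynorphins the kappa receptor, and beta-endorphin, a product of Pomc, the mu receptor. Nociceptin resembles dynorphin in sequence and the NOP receptor resembles the other receptors, yet nociceptin binds the classical receptors poorly and naloxone hardly blocks NOP. In the striatum, Penk is typical of indirect pathway medium spiny neurons, which also carry the dopamine D2 receptor, while Pdyn is typical of direct pathway medium spiny neurons with the D1 receptor. Mu receptors and kappa receptors of the NAc have been tied to liking of palatable food and to aversion, respectively, and nociceptin is known to dampen dopamine release there.

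Each probe is a 60-base oligonucleotide with the sense sequence of the mRNA, and its letters fix which part of the transcript was read. The Pnoc probe and the probe pair of Oprl1 are shown because the largest differences came from them, the coding probe of Pdyn because it covers peptide sequence, and the Oprm1 probes because they disagree in what they cover. Of probes that lie in a 3′ UTR, only a stretch of 30 bases is given. Positions are those of build mm9 in the array headers.
Pnoc A_51_P450469, bases 1 to 30, chr14:66020505-66020564, minus strand: gtctcaccacgatcctgttgctacatcaga
Oprl1 A_55_P2066593, bases 31 to 60, chr2:181455616-181455675, plus strand: ggagttctcatAATAAAcacttaccagtga
Oprl1 A_55_P2066598, whole, chr2:181453983-181454042, plus strand: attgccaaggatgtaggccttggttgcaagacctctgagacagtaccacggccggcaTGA
Pdyn A_66_P123898, whole, chr2:129513968-129514027, minus strand: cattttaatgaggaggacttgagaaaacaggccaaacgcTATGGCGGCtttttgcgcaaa
Penk A_55_P2035946, bases 31 to 60, chr4:4060724-4060783, minus strand: atctctcctgacgaaacatcAATAAAtgct
Pomc A_52_P671543, whole, chr12:3960413-3960472, plus strand: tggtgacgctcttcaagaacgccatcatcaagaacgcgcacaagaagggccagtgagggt
Oprm1 A_51_P100309, whole, chr10:3516154-3516213, minus strand: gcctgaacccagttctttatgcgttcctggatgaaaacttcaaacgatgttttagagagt
Oprm1 A_55_P2025443, bases 31 to 60, chr10:3308332-3308391, minus strand: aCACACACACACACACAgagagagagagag

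Capitals in the first Oprl1 probe and in the Penk probe mark the polyadenylation signal AATAAA, searched on the sense strand alone, which 10.06% of all probes hold. Capitals in the other Oprl1 probe mark the stop codon TGA of the receptor, so that this gene was read both at the end of its coding sequence and at the end of its 3′ UTR. In the Pdyn probe the capitals are a match to TANGGNGGN (sense strand), the codons for the tyrosine and glycines that open the core shared by enkephalins and dynorphins, found in 0.6537% of all probes. The first Oprm1 probe, without capitals, is coding sequence of the receptor. The other Oprm1 probe carries a CA repeat, in capitals, and at least 12 bases of such a repeat occur in 0.1096% of probes. On the chromosome it lies 207.8 kb from the nearest of the 3 remaining Oprm1 probes, which span 39.3 kb. The Pomc probe, printed without capitals, covers the end of the beta-endorphin coding sequence.

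Levels are given as log2 of the processed signal over the 75th percentile of the same array, so that 0 is a level equal to that percentile. They rank mice within a probe, but not probes or genes against each other. Each of the 12 probes that could be tested exceeded background clearly on every array. The remaining probe, Oprm1 A_55_P2087448, passed background on 1 control array and on no MS array, and it was not tested.

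No member passed the adjusted threshold of 0.05 (0 of 12 probes, limma), and over the whole array 1 of 33111 tested probes did (0.00302%). At an unadjusted p under 0.05 there were 7 of the 12 member probes, against 14.1% of all tested probes. Of these, 3 were lower in MS mice (background 7.71%) and 4 were higher (background 6.35%). The 3 lower ones were the Pnoc probe and both Oprl1 probes, that is, every tested probe of the nociceptin system. The study itself lists both genes as changed in these samples. The counts of members in this paragraph are thus a description and not independent evidence. The 4 higher ones were both Pdyn probes, 1 Oprm1 probe and the Oprd1 probe. Without any single mouse the lower count stayed at 3, while the higher count was 1 without control mouse 4 or MS mouse 2, 2 without MS mouse 3 or MS mouse 4, and 3 to 5 without any of the others. In 4 of the 12 probes the 4 control and the 4 MS values did not overlap, compared with 8.67% of all tested probes, and these were the 3 lower ones (background 4.91%) and 1 of Oprm1 (background 3.76% for higher).

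**Figure D1:**
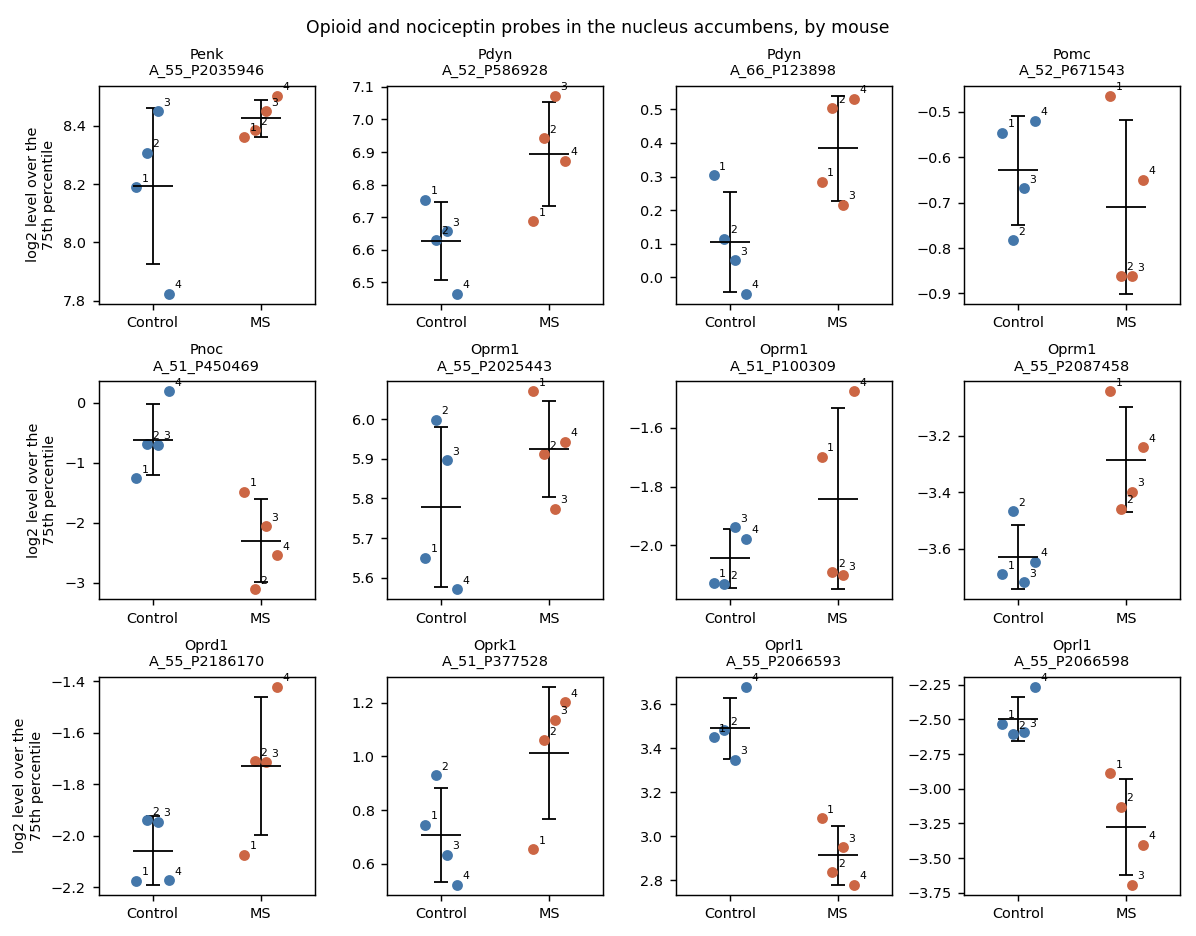
Level of each tested member probe by mouse (vertical axis, log2 over the 75th percentile of the array, with its own range in each panel), where points are mice numbered 1 to 4 within a group and bars are the mean ± SD. The 4 MS points lie below all control points in the Pnoc panel and in both Oprl1 panels and above them in the panel of Oprm1 A_55_P2087458, while the groups overlap in the other 8.

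Pnoc, the precursor of nociceptin, had the largest difference of all members. In control mice 1 to 4 its level was -1.25, -0.69, -0.70 and 0.20, and in MS mice 1 to 4 it was -1.48, -3.11, -2.06 and -2.54. Every MS mouse lay below every control mouse, although MS mouse 1 and control mouse 1 were only a small step apart. MS minus control was -1.69 (SE 0.39, 95% interval -2.57 to -0.80), which is a level 3.22-fold higher in controls, with an adjusted p of 0.129. Leaving out 1 mouse at a time gave differences from -1.96 to -1.42. Within the rows of the slide the difference was -1.32 and -2.05. With background correction by normexp the difference shrank to -1.13 and passed the threshold (adjusted p = 0.0200, where 1.47% of probes passed), and in the value table of the authors it was -1.35 (adjusted p = 0.0276, where 1.20% passed). Over all alternatives the adjusted p of Pnoc ran from 0.0200 to 0.335. In a micropunch, fewer cells that make an mRNA and less of it per cell cannot be told apart, and this holds for every gene below.

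Oprl1, which encodes the receptor of nociceptin, was lower in MS mice by both probes. The probe at the polyadenylation signal read 3.45, 3.48, 3.35 and 3.68 in control mice 1 to 4 and 3.08, 2.84, 2.95 and 2.78 in MS mice 1 to 4. Its groups lay apart, with the highest MS value below the lowest control value. The difference was -0.58 (SE 0.10, 95% interval -0.80 to -0.36), a level 1.49-fold higher in controls, with an adjusted p of 0.0793. At the stop codon, the levels were -2.53, -2.60, -2.59 and -2.26 in controls and -2.89, -3.13, -3.69 and -3.40 in MS mice. These groups did not overlap either, so that the end of the coding sequence and the end of the 3′ UTR ordered the groups in the same way. Here the difference was -0.78 (SE 0.17, 95% interval -1.17 to -0.40, adjusted p = 0.117), with controls 1.72-fold higher. Which side of the threshold Oprl1 fell on depended on the processing, since the first probe passed with normexp (adjusted p = 0.00666), with the table of the authors (0.0178), among probes above background on all arrays (0.0491) and with a variance trend and robust moderation (0.00757), out of a range up to 0.264. The probe at the stop codon passed with normexp, at a smaller difference of -0.40 (0.0348), and with the trend (0.0388), where 1.52% of all probes passed, out of a range up to 0.328.

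**Figure D2:**
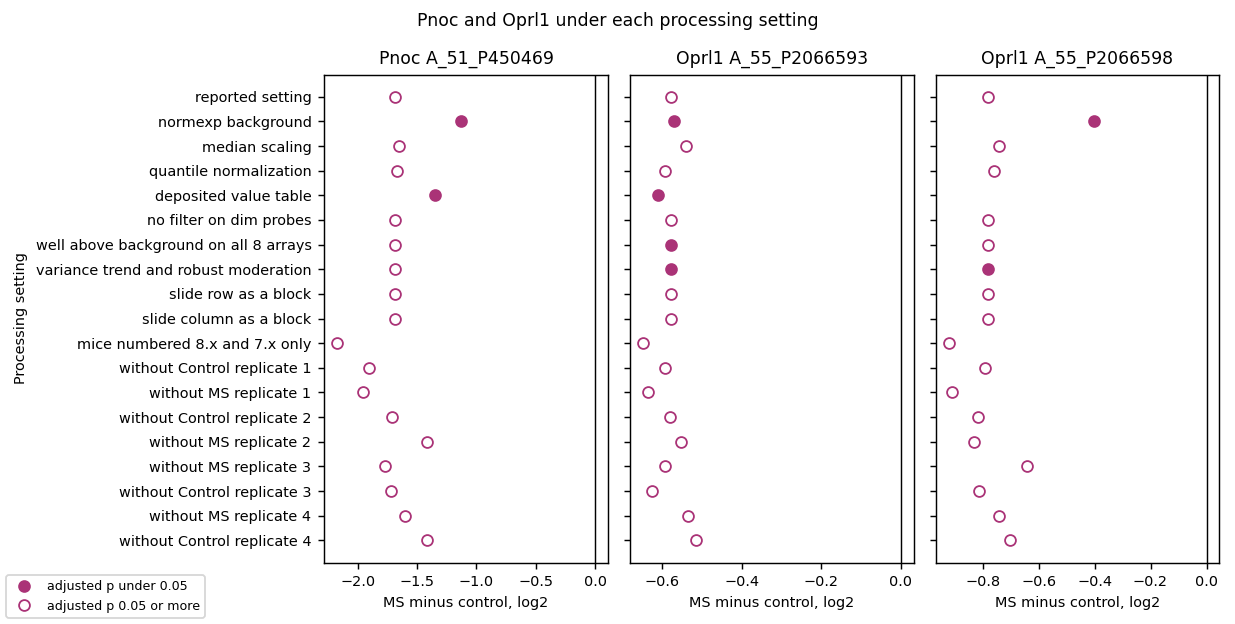
MS minus control (horizontal axis, log2) for Pnoc and for both Oprl1 probes under each processing setting (vertical axis), with filled circles where the adjusted p was under 0.05. Every circle lies to the left of 0, between -2.17 and -1.13 for Pnoc, and the filled ones are 2 settings for Pnoc, 4 for Oprl1 A_55_P2066593 and 2 for Oprl1 A_55_P2066598, which the value table of the authors does not hold.

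Among the classical peptides, Pdyn and Penk had positive differences and Pomc a difference near 0, and none passed the threshold. The Pdyn probe in the 3′ UTR (A_52_P586928, chr2:129512323-129512382) read 6.75, 6.63, 6.66 and 6.46 in controls and 6.69, 6.94, 7.07 and 6.87 in MS mice. Of the MS mice, 3 exceeded every control and MS mouse 1 fell inside the control range. Its difference was 0.27 (SE 0.10, 95% interval 0.04 to 0.50, adjusted p = 0.294). The coding probe covers the tyrosine and glycine codons printed above in capitals. It read 0.30, 0.11, 0.05 and -0.05 in controls and 0.28, 0.50, 0.22 and 0.53 in MS mice. It differed by 0.28 (SE 0.11, adjusted p = 0.298), close to the other Pdyn probe, and its groups overlapped through control mouse 1.

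For Penk, the enkephalin precursor, the levels were 8.19, 8.31, 8.45 and 7.82 in controls and 8.36, 8.38, 8.45 and 8.503 in MS mice. Control mouse 4 was the lowest by a wide margin, control mouse 3 lay within the MS range, and control mice 1 and 2 lay below every MS mouse. The difference of 0.23 (SE 0.13, 95% interval -0.06 to 0.52, adjusted p = 0.463) fell to 0.11 without control mouse 4. Pomc, whose cell bodies lie in the hypothalamus and pituitary rather than in the NAc, read -0.55, -0.78, -0.67 and -0.52 in controls and -0.46, -0.86, -0.86 and -0.65 in MS mice. These values were mixed between the groups, and the difference was -0.08 (SE 0.11, 95% interval -0.33 to 0.17, adjusted p = 0.800). Of 8 pituitary markers, Gh, Prl, Tshb, Fshb and Pitx1 were above background on no array, Cga and Tbx19 on too few to be tested, and Lhb on 7 arrays, with a difference of 0.14 (SE 0.16).

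The kappa receptor gene Oprk1 (A_51_P377528, chr1:5592825-5592884) read 0.75, 0.93, 0.63 and 0.52 in controls and 0.66, 1.06, 1.14 and 1.20 in MS mice. As with the 3′ UTR probe of Pdyn, whose products it binds, 3 MS mice exceeded all controls and MS mouse 1 did not. The difference was 0.31 (SE 0.14, 95% interval -0.01 to 0.62, adjusted p = 0.370), but 0.02 in the first row of the slide and 0.59 in the second. Oprd1, the delta receptor gene (A_55_P2186170, chr4:131666647-131666706), read -2.17, -1.94, -1.95 and -2.17 in controls and -2.07, -1.71, -1.71 and -1.42 in MS mice. Again MS mouse 1 alone lay within the control range, and the difference was 0.33 (SE 0.14, 95% interval 0.02 to 0.64, adjusted p = 0.337).

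The mu receptor gene Oprm1 had 4 probes, and its account depended on which was read. The probe printed at 10 places of the array (A_51_P100309), with a coding sequence, gave -2.13, -2.13, -1.94 and -1.98 in controls and -1.70, -2.09, -2.10 and -1.48 in MS mice. Spots of this probe on one array differed by an SD of 0.066 to 0.147, a measure of spot noise and not of the spread between mice, and MS mice 1 and 4 were the highest. Its difference was 0.20 (SE 0.15, adjusted p = 0.586). The probe with the CA repeat had the highest mean level of the 4 and so represented the gene in pairs and lists by the rule used for all genes, which goes by brightness and says nothing of abundance. The array design assigns it to the same transcript as the coding probe, starting at base 2581 against base 1264. Whether this probe, with its repeat and its chromosomal distance from the others, reads Oprm1 mRNA was not tested. It read 5.65, 6.00, 5.90 and 5.57 in controls and 6.07, 5.91, 5.77 and 5.94 in MS mice, with a difference of 0.15 (SE 0.11, adjusted p = 0.613). The third probe (A_55_P2087458, chr10:3551689-3551748) read -3.69, -3.47, -3.72 and -3.65 in controls and -3.04, -3.46, -3.40 and -3.24 in MS mice. These values did not overlap, but control mouse 2 and MS mouse 2 were nearly equal, and the difference of 0.35 (SE 0.11, adjusted p = 0.216) shrank to 0.09 with normexp and to 0.21 in the value table of the authors.

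**Figure D3:**
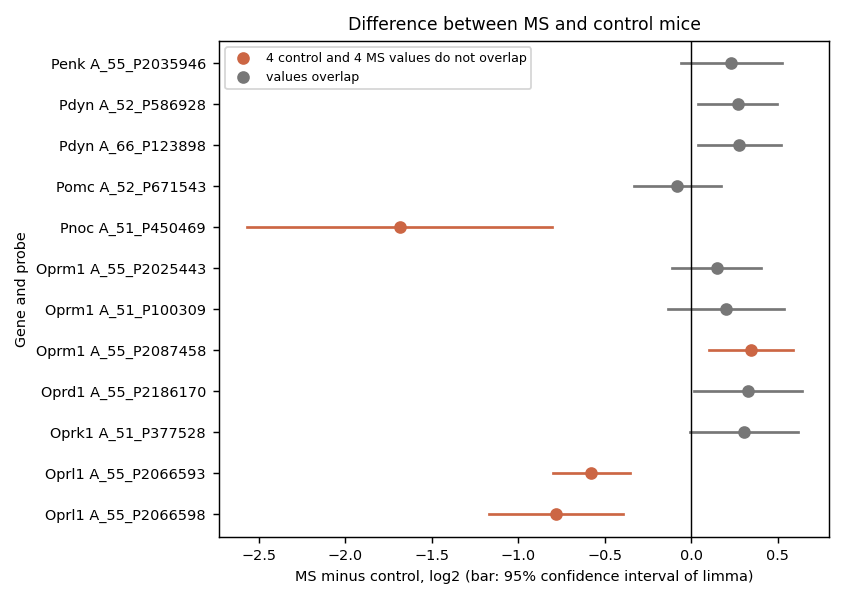
MS minus control for the 12 tested probes (horizontal axis, log2; points are the fitted difference and bars the 95% confidence interval of limma), with gene and probe on the vertical axis and colour for probes whose groups do not overlap. Pnoc at -1.69 and both Oprl1 probes at -0.58 and -0.78 lie left of 0 with their whole bars, Pomc at -0.08 crosses 0, and the other 8 probes have positive estimates from 0.15 to 0.35.

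MS mouse 1 was the MS mouse nearest to the control mean in 7 of the 12 probes, and control mouse 4 was the control mouse farthest from the MS mean in 9 of 12. The share over all tested probes was not taken, and some of the 12 probes read the same gene. Whether these counts are particular to the members is thus not known. Control mouse 4 also had the highest share of probes above background, 69.7% against 57.3% to 61.2% on the other arrays. The part of that share in the results was not tested, but without this mouse the difference was -1.42 for Pnoc, -0.52 for Oprl1 and 0.21 for Pdyn.

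Whether the nociceptin genes differed by another amount than the classical ones was asked within each mouse, by the level of Pnoc minus that of each other peptide and the level of Oprl1 minus that of each other receptor. Since the study itself lists Pnoc and Oprl1 as changed in these samples, this is not independent evidence about either gene. The pairs were chosen with that known, and each reuses Pnoc or Oprl1, so that their outcome was largely set by the choice. They describe the contrast of nociceptin and classical members and do not test it independently. Pnoc minus Penk was -8.80 ± 0.81 in the control group and -10.72 ± 0.71 after MS (SD, n = 4), a change of -1.92 (two-sided permutation test, exact, adjusted p = 0.0286 over 6 pairs). Pnoc minus Pdyn changed by -1.95 and Pnoc minus Pomc by -1.61. Among the receptors, Oprl1 minus Oprk1 went from 2.78 ± 0.26 to 1.90 ± 0.37 (SD, n = 4, the same exact test, adjusted p = 0.0286), a change of -0.88. Oprl1 minus Oprd1 changed by -0.91, and Oprl1 minus Oprm1 by -0.72, or by -0.78 with the Oprm1 probe printed at 10 places. All 6 pairs reached 0.0286, the smallest p that 70 arrangements of the mice allow, since in each pair the 4 MS mice lay below the 4 controls. Within the value table of the authors, Oprl1 minus Oprd1 no longer passed (-0.88, adjusted p = 0.0571). Without any single control mouse each of the 6 pairs had an adjusted p of 0.0571 in the same exact test. So had Pnoc minus Pdyn without MS mouse 2 and Pnoc minus Pomc without MS mouse 2 or MS mouse 4. In all these cases the remaining MS mice still lay below the remaining controls. Only 35 arrangements are left then, with a smallest p of 0.0286, so p moves in coarse steps. Such a step cannot show whether a call rests on a single mouse.

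**Figure D4:**
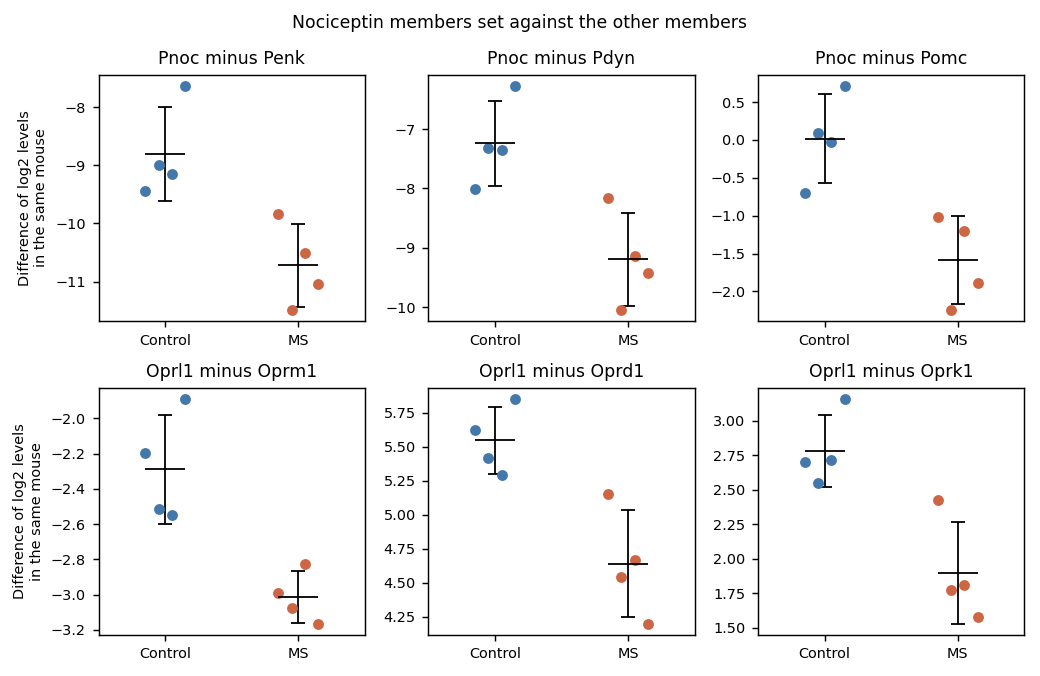
Difference of log2 levels within a mouse (vertical axis) for Pnoc minus each classical peptide and Oprl1 minus each classical receptor, where points are mice and bars the mean ± SD of 4 mice. In all 6 panels the MS points lie below the control points, with mean changes from -1.95 to -0.72.

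Genes that make, break down and transmit these peptides were read in the same fit. For lists, counts are at an unadjusted p under 0.05, one probe a gene, and over all 22759 tested genes 7.98% were lower and 5.85% higher, with a median difference near 0. Of 11 genes of peptide processing, 1 was lower and 1 higher (median -0.01). These were Chga, a granin of secretory granules, at -0.35 (SE 0.09, adjusted p = 0.166), and Pcsk2, the convertase that cuts prodynorphin and proenkephalin, at 0.37 (SE 0.14, adjusted p = 0.297). Pcsk1n, an inhibitor of the sister convertase, stood at -0.14 (SE 0.06). Of 12 enzymes of peptide breakdown 11 were tested and 2 were lower, namely Ece2 at -0.46 (SE 0.17) and Ace at -0.43 (SE 0.16), while the aminopeptidase Anpep stood at 0.18 (SE 0.08) and Enpep was above background on no array.

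Among 19 genes of receptor transduction, 3 were lower and 3 higher (median -0.04). The adenylyl cyclase Adcy8 had the smallest p of all pathway lists, with levels of -2.69 in controls and -3.93 in MS mice, a difference of -1.25 (SE 0.21, adjusted p = 0.0773) and no overlap. The potassium channel subunit Kcnj5 stood at -0.83 (SE 0.25) and the kinase subunit Prkar2b at 0.23 (SE 0.07), both without overlap. Of 15 genes of receptor desensitization and regulation 14 were tested, 2 lower and 2 higher (median 0.03). The receptor kinase Grk3 differed by -0.42 (SE 0.12), the arrestin Arrb2 by -0.23 (SE 0.09) and the scaffold Flna, which binds the mu receptor, by 0.25 (SE 0.10). Of 12 regulators and related genes 11 were tested (median -0.06). Fosb, known for its accumulation in NAc after repeated reward, stood at 0.27 (SE 0.14), and Creb1, a factor acting on Pdyn, at -0.28 (SE 0.15). No gene of these lists passed the adjusted threshold, and Adcy5, Pde10a, Pde1b and Rgs9 stand also among the spiny neuron markers that follow.

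Markers of the cells that hold these genes were read as well, and values are given as the range over mice of the summed level, where a gene at the 75th percentile counts as 1. Such a sum follows the brightest probes of its list and is not an amount of a cell type. In the pallidal list these are Cplx1, Lhx6 and Etv1, none of which passed the unadjusted threshold. These lists were drawn up with earlier results of these data known, and the study itself names Agt, Npas1 and Pvalb as changed. Their counts beside the share over all genes are thus a description and not independent evidence. All markers of medium spiny neurons on the lists were tested. For the direct pathway, home of Pdyn, 0 of 8 were lower and 0 higher (median 0.17), with sums of 137 to 165 in controls and 149 to 214 in MS mice. Drd1 differed by 0.35 (SE 0.15), Tac1 by 0.28 (SE 0.15), Slc35d3 by 0.26 (SE 0.17), Chrm4 by 0.22 (SE 0.12), Ebf1 by 0.12 (SE 0.14), Isl1 by 0.07 (SE 0.11), Sfxn1 by -0.02 (SE 0.10) and Eya1 by -0.03 (SE 0.08). For the indirect pathway, home of Penk, 2 of 8 were higher (median 0.24), with sums of 26.6 to 42.5 in controls and 41.7 to 49.0 in MS mice. Adora2a, the adenosine receptor, differed by 0.58 (SE 0.20), Gpr52 by 0.43 (SE 0.15), Gpr6 by 0.35 (SE 0.18), Drd2 by 0.28 (SE 0.17), Plxdc1 by 0.21 (SE 0.11), Sp9 by 0.09 (SE 0.12), Grik3 by 0.05 (SE 0.08) and Ptprm by -0.13 (SE 0.24). Of 12 general spiny neuron markers 8 were higher (median 0.33), led by Rarb at 0.33 (SE 0.10) and Meis2 at 0.28 (SE 0.09), with sums of 568 to 908 against 862 to 1004. The differences of Penk, Pdyn, Oprk1 and Oprd1, from 0.23 to 0.33, lay within the span of these markers, and the part of the markers in those differences was not tested.

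Among markers of the pallidum, the hypothalamus with its neighbours and the septum, those that passed the unadjusted threshold were lower in MS mice. Of 12 pallidal markers 8 were lower and none higher (median -1.04), with sums of 86.5 to 95.5 in controls and 75.6 to 88.3 in MS mice. All 8 were without overlap, and over all tested probes 4.91% were lower without overlap. Lhx8 stood at -0.92 (SE 0.15) and Npas1 at -2.26 (SE 0.36). Of 16 markers of hypothalamus, preoptic area and bed nucleus 13 were tested and 7 were lower (median -0.61), with sums of 51.9 to 75.1 against 43.7 to 49.4, so that every MS mouse lay below every control. Avp, Otp and Sim1 of this list were above background on no array. Its Lhx5, the single call of the array, passed the filter through the 4 control arrays alone and had no MS array above background, so that only a bound can be given (higher in controls by at least 2.88-fold). Lhx5 is included in the 7 lower genes and in the median, although it could be tested only because it was high in controls. Resp18 stood at -1.13 (SE 0.21). Of 8 septum markers 7 were tested and 4 were lower (median -0.46), led by Nrip3 at -1.15 (SE 0.30) and Zic1 at -0.64 (SE 0.18), with sums of 30.8 to 42.1 against 22.2 to 32.4. Of 11 interneuron markers 10 were tested and 2 were lower (median -0.11), Pvalb (also on the pallidal list) at -2.07 (SE 0.50) and Calb2 at -1.43 (SE 0.36), with sums of 41.2 to 50.4 against 36.1 to 42.4. The part of these markers in the differences of Pnoc and Oprl1 was not tested.

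In the remaining lists, 6 of 10 astrocyte markers were lower (median -0.26, sums of 66.3 to 75.05 against 58.3 to 65.5), led by Etnppl at -2.45 (SE 0.28) and Agt at -2.00 (SE 0.26). Oligodendrocyte markers had 1 of 8 lower (median -0.17), Olig1 at -0.31 (SE 0.08), next to Mag at -0.25 (SE 0.12). Microglia markers had 1 of 8 lower (median -0.19), Ctss at -0.31 (SE 0.10), next to P2ry12 at -0.26 (SE 0.12). Of 9 markers of striosomes, the patches rich in mu receptors, 1 was lower and 2 were higher (median 0.15, which is the value of Oprm1 itself, a member of the list read by the probe with the CA repeat), with Rasgrf2 at -0.55 (SE 0.08) and Sema5b at 0.57 (SE 0.24), and of 8 matrix markers 2 were lower (median 0.13), Rasgrp2 at -0.30 (SE 0.10) and Zfp521 at -0.16 (SE 0.07). Of 9 cortical markers 6 were tested and 1 was higher (median -0.11), Fezf2 at 0.53 (SE 0.22), next to Cux2 at -0.14 (SE 0.09).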

How the data were processed

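Total RNA of each mouse (40 ng) was labelled with Cy3 and hybridised to 1 Agilent array, and all 8 arrays were on 1 slide. The scanner files deposited by the authors give the intensity of each spot on a linear scale, with background subtracted (Agilent Feature Extraction 10.10.1.1, build mm9 per the file headers). The array design in these headers is not the one named in the methods of the study, and names and positions are those of the headers. The authors also deposited a log2 value table of 31261 probes, used as an alternative, which followed the log2 mean signal (r of at least 0.9997 across probes of each array). Its scale is thus log2 levels without centring, with a median of 8.01 in every column, but its normalization is not given in the sources used here. In the submitters' processing notes limma appears without a version.

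Control and outlier spots were left out, spots of a probe were averaged, and each array was scaled by the 75th percentile of its processed signal. The arrays had 57.3% to 69.7% of probes above background, a 75th percentile signal of 296 to 431 and no saturated probe. The number of arrays, 4 a group, limits the precision. Probes well above background on at least 4 arrays (33111) were tested with limma 3.58.1 in R 4.3.3 (lmFit and eBayes, Benjamini-Hochberg over all probes, threshold 0.05), checked on simulated data first. A gene with several probes was represented in lists and pairs by the one with the highest mean level. Pairs of members were compared with exact two-sided permutation tests over 70 arrangements. Probes were named by accession or symbol through RefSeq, otherwise by the array design.

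Named are all members with all probes, the genes of each pathway list that passed or else up to 3 of smallest p, all markers of direct and indirect pathway neurons, 2 genes of smallest p of the other marker lists, and the 3 genes most like each member. For 1 gene of the regulator list the result is not reported here. Members, lists and tests were chosen with earlier results of these data known. Alternatives changed the background correction, scaling, filter, moderation, slide position and mice. The first part of the individual numbers in the labels (3 controls share one, 3 MS mice another) is not explained there, and no such number held both groups, so that whatever it stands for cannot be told apart from the group. If it marks a litter or cage, the mice of a group are not independent, and the p-values and SEs printed are too small.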

Additional observations from a re-analysis of the deposited data

How the results depend on the processing

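No member difference changed sign under any of the alternatives that were fitted. Within single rows or columns of the slide, where a column holds 1 mouse a group, the sign changed for Pomc (0.00 in a row, 0.20 and 0.13 in columns) and in 1 column each for Penk (-0.09), Pdyn A_66_P123898 (-0.09), Oprd1 (-0.13), Oprm1 A_55_P2025443 (-0.06) and Oprm1 A_51_P100309 (-0.11), and it was kept for Pnoc, both Oprl1 probes and the other tested probes. Member probes past the threshold, 0 as reported, numbered 3 with normexp (486 probes in all against 1), 2 in the value table of the authors (375 in all), 1 when probes had to be above background on all 8 arrays (113 in all) and 2 with a variance trend and robust moderation (504 in all). They stayed at 0 with the median of each array as the scale (81 in all), without a filter (0 in all), with the slide column as a block (0 in all) and with the mice numbered 8.x and 7.x alone (0 in all). Leaving out 1 mouse gave 0 in each case, with 0 to 37 in all, the highest without control mouse 3. The cause was not tested. At an unadjusted p, 3 member probes were lower in each of these, or 2 in the table of the authors, which lacks the Oprl1 probe at the stop codon.

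Of the pairs, Oprl1 minus Oprd1 missed the threshold in the value table of the authors (-0.88, adjusted p = 0.0571). Without 1 mouse, Pnoc minus Penk was -2.21 to -1.53, Pnoc minus Pdyn -2.30 to -1.63, Pnoc minus Pomc -1.85 to -1.37, Oprl1 minus Oprm1 -0.81 to -0.59, Oprl1 minus Oprd1 -1.08 to -0.76 and Oprl1 minus Oprk1 -1.06 to -0.76, with exact adjusted p of 0.0286 to 0.0571. With rows or columns of the slide as blocks, or 3 mice against 3, the smallest exact p is 0.0556, 0.125 and 0.1, so that no call was possible. No paired analysis was possible because the labels give the groups no shared replicate numbers. Signal over background limits the dim probes: Oprm1 A_55_P2087448 was not tested, and with normexp the differences of Oprm1 A_55_P2087458 and of the Oprl1 probe at the stop codon shrank to 0.09 and -0.40. The difference of Pnoc, with a mean processed signal of 258 in controls and 79.2 in MS mice, shrank from -1.69 to -1.13.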

Other observations

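For each member, the 3 genes whose levels followed it most closely over the 8 arrays were picked from 13956 genes above background on all of them, and the correlation of deviations from the group means is given beside as a description. Both r share the same 8 arrays, and with so few arrays and so many genes high values occur for some gene of any pattern. Pnoc was followed by Hrh1, a histamine receptor (r = 0.986, within groups 0.957), by Camk2d, a calmodulin-dependent kinase (0.985, within groups 0.967), and by Cyp4f16 (0.985, within groups 0.960). Oprl1 was followed by the glutamate transporter Slc1a6 (0.994, within groups 0.955), the sodium-calcium exchanger Slc24a3 (0.993, within groups 0.954) and Efemp2 (0.990, within groups 0.929). For Penk the closest were the phosphatase subunit Ppp1ca (0.993), the calcium pump Atp2b1 (0.992) and the postsynaptic scaffold gene Dlgap3 (0.987), all with r of at least 0.981 within groups. Pdyn was followed by Rcc2, Smg1 and Eef1akmt4 (0.966 to 0.975), Pomc by Mapre3, Odf3b and Ppil6 (0.959 to 0.973), Oprm1, read by the probe with the CA repeat, by Slc8a3, Pdzrn3 and Mbd5 (0.970 to 0.991), Oprd1 by Thsd4, Fam120a and Dlgap2 (0.962 to 0.979) and Oprk1 by Cenpj, Ptpn7 and Arhgef3 (0.955 to 0.968).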
